A study of Mus musculus with 7 samples.

Results

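The genes described here encode factors that make ribosomes in the nucleolus, together with the RNA polymerase I machinery that transcribes the ribosomal RNA genes. The 37 genes were named in a list of nucleolar and RNA polymerase I genes, some of them mutated in human disorders of neural crest such as Treacher Collins syndrome, and each was found by its mouse symbol among the 27179 genes of the deposited count table. The list was drawn up with results of these data known, and Rrp9 had already been seen to have the smallest p of all genes between tagged and untagged libraries, so the values of that comparison are given as a description of the listed genes. The reads come from ChIP-seq, in which chromatin was precipitated with an antibody to V5 and the bound DNA sequenced, of pharyngeal arches 1 and 2 of C57BL/6 mouse embryos at E10.5, tissue that builds the jaws and the middle ear. MOZ (KAT6A) is a histone acetyltransferase, and the study asked where in the genome it sits.

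The V5 group has 3 ChIP libraries of arches from embryos homozygous for Moz-Flag-V5-BIO, an allele in which the endogenous Moz (Kat6a) locus encodes MOZ with a Flag-V5-BIO tag at its carboxy-terminus. The submitters state that such animals live, stay healthy and breed. The wild-type group has 3 ChIP libraries of untagged arches, which lack the V5 epitope and went through the same immunoprecipitation. The input is 1 library of tagged arches without antibody. All groups share strain, stage and tissue. The tag is driven by the gene's own locus and so marks MOZ in every cell type of the arches that makes it; a difference in the share of cells bound and a difference in binding per cell cannot be told apart. No label says how many embryos or litters stand behind a library, so the spread between libraries may be technical. The libraries hold DNA, not RNA, and the tissue could not be checked against marker genes.

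Ribosome synthesis starts when RNA polymerase I transcribes the repeated ribosomal RNA genes into a long precursor. UBTF and the SL1 complex, of which TAF1B is a subunit, mark the promoter, and RRN3 links the polymerase to it. Treacle, the product of Tcof1, acts in both transcription and modification of the precursor. Small nucleolar ribonucleoproteins (snoRNPs) methylate or pseudouridylate the precursor, the small subunit processome cuts and folds its 18S part, and another group of factors matures the large subunit. In human, mutations of TCOF1, POLR1B, POLR1C and POLR1D cause Treacher Collins syndrome and mutations of POLR1A cause a related facial disorder, in which too few neural crest cells reach the face.

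A value here is the number of reads over a gene, for most genes over its whole span with introns, and CPM is that count per 1e6 counts of the library. The V5 libraries held 806648 to 3286602 counts, the wild-type libraries 1288732 to 2504595 and the input 3488745, and V5 replicate 1 was the shallowest. There 1 read is worth 1.24 CPM, against 0.304 CPM in V5 replicate 3. The V5 libraries varied more among themselves than the wild-type libraries. Over the 30 listed genes with at least 30 counts in the group, the chi-square per degree of freedom between replicates (1 is counting error alone) had a median of 6.85 in V5 and 1.77 in wild type, beside medians over all genes with that many counts of 6.13 in V5 and 3.43 in wild type. The V5 range was wider than the wild-type range in 22 of the 28 tested genes of the list (78.6%), and in 69.3% of all tested genes.

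Set against wild type, no gene of the list was called higher or lower in V5. Enough counts for the test were found for 28 of the 37 genes. The edgeR quasi-likelihood test, adjusted over all 14575 genes tested, called 0 of these 28 higher and 0 lower at an adjusted p of 0.05, where the share of all genes called was 0% in each direction and the smallest adjusted p of any gene was 0.980. Rrp9 and Heatr1, 2 of the 28, had an unadjusted p under 0.05, beside 4.12% of all genes. DESeq2, edgeR's likelihood ratio test and limma-voom also called 0 of the list, beside 0%, 0% and 0.00686% of all genes. For Rrp9 the adjusted p was 0.0624 with DESeq2 and 0.0640 with the likelihood ratio test, both close to the threshold. With limma-voom it was 0.9998. Without the filter on low counts Rrp9 was called (edgeR adjusted p = 0.00183), 1 of 9 genes in all (0.0368% of 24447), and without V5 replicate 2 it was called too (edgeR adjusted p = 0.0256).

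A positive log2 fold change (V5 over wild type) was found in 18 of the 28 tested genes, beside 52% of all tested genes. The median log2 fold change was 0.25 in the list and 0.02 over all genes. This median changed when single libraries were left out: it was 0.02 without V5 replicate 2, 0.07 without wild-type replicate 1 and 0.08 without wild-type replicate 3. The filter on low counts was repeated in these fits, so they cover 31, 31 and 29 listed genes in place of 28. How much of the change came from the added genes was not tested. Gene length moves with this comparison, as all tested genes of 3 to 10 kb had a median of 0.18 and those over 100 kb a median of -0.01. Listed genes are of middle length, with a median of 15068 bp. In the band of 10 to 30 kb 12 of 19 were positive with a median of 0.22, beside 0.03 over all genes of the band, and from 30 to 100 kb 5 of 8 were positive with a median of 0.31, beside 0.02. The part of length in the result was not tested beyond these bands.

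**Figure D1:**
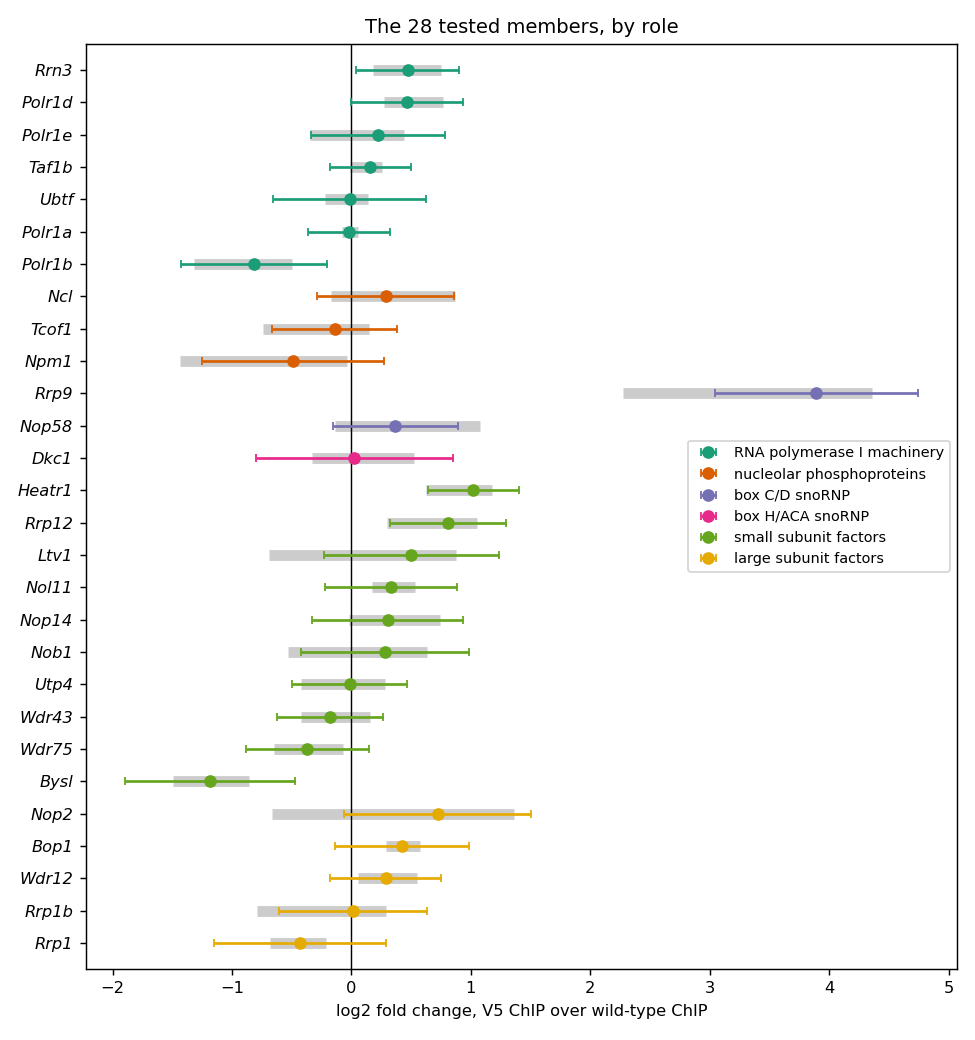
Log2 fold changes (horizontal axis, V5 over wild-type ChIP) of the 28 tested genes, grouped and coloured by role; points are edgeR estimates, whiskers 1 standard error and grey bars the range when each of the 6 ChIP libraries is left out in turn. Rrp9 stands at 3.89 and Bysl at -1.18, and the grey bars cross 0 for many of the genes between them.

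In 5 of the 37 genes of the list the V5 and wild-type libraries did not overlap. Over all 27179 genes, V5 lay wholly above wild type in 977 and wholly below in 1150. V5 lay wholly above in Rrp9 and Heatr1, 2 of the 28 tested genes, where 4.83% of all tested genes did so. V5 lay wholly below in Bysl and Polr1b among the tested genes, where 5.27% of all genes did so, and in Nolc1, which had too few counts for the test.

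Rrp9 encodes the protein specific to the U3 snoRNP, which guides early cuts of the precursor RNA (GeneID 27966, chr9:106477309-106485415 in mm10). It had 85.5, 14.9 and 10.3 CPM in V5 replicates 1, 2 and 3, against 3.10, 1.51 and 2.79 CPM in wild-type replicates 1, 2 and 3, and 8.89 CPM in the input. V5 replicate 1 alone stood far from the rest, with 69 reads in the shallowest library. V5 replicate 3 lay little above the input and V5 replicate 2 further above it. Means with SD over 3 libraries each were 36.9 ± 42.2 CPM in V5 and 2.47 ± 0.847 CPM in wild type. On the log2 scale the difference was 3.89 (SE 0.85, edgeR adjusted p = 0.980), and 2.28 when V5 replicate 1 was left out. All wild-type libraries were lower than the input, so the low wild-type values are a part of this difference. The chi-square per degree of freedom between the V5 replicates was 81.9, the highest of the list.

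Heatr1 encodes a large scaffold of the small subunit processome that is also needed for transcription of the precursor (GeneID 217995, chr13:12395375-12438893). It had 48.3, 106 and 57.5 CPM in V5, against 35.7, 40.7 and 29.9 CPM in wild type, and 33.8 CPM in the input. Here wild type and input lay close together and every V5 library was above both. In Heatr1 the log2 fold change came to 1.02 (SE 0.38, edgeR adjusted p = 0.980), and to 0.62 without V5 replicate 2, which held the highest value.

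Bysl (bystin), a factor of late small subunit maturation (GeneID 53414, chr17:47599331-47611492), had 2.48, 11.4 and 8.82 CPM in V5, against 22.5, 17.3 and 14.0 CPM in wild type, and 12.6 CPM in the input. The input lay between the groups. For Bysl the log2 fold change came to -1.18 (SE 0.71, edgeR adjusted p = 0.980) and ranged from -1.50 to -0.86 when each library was left out in turn. It overlaps the neighbouring gene Ccnd3 over 2.95% of its span, where the counting is uncertain. Nolc1, a chaperone of snoRNPs that moves between nucleolus and Cajal bodies, had only 5, 0 and 19 counts in V5, against 9, 15 and 27 in wild type, and the input had 24. In CPM these are 6.20, 0 and 5.78 in V5, against 6.98, 11.3 and 10.8 in wild type, with 6.88 in the input, so the gap between the groups was less than 1 read of V5 replicate 1.

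**Figure D2:**
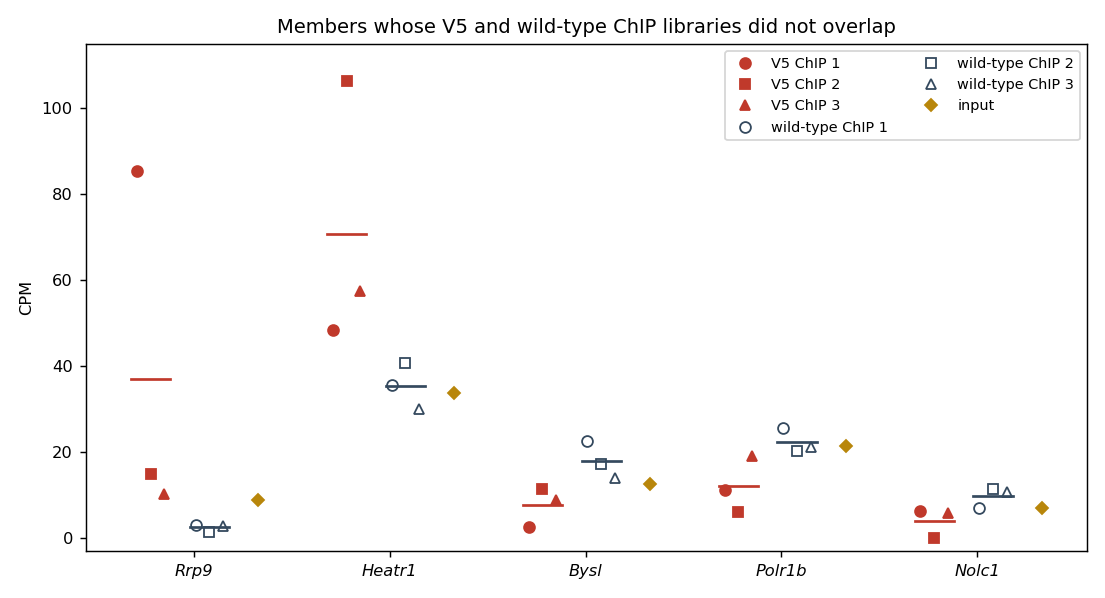
CPM by library (vertical axis) for the 5 listed genes whose V5 and wild-type libraries did not overlap; red filled symbols are V5 replicates, dark open symbols wild-type replicates, short lines the group means and gold diamonds the input. In Rrp9 a single V5 library at 85.5 CPM sets the mean, and in Bysl, Polr1b and Nolc1 all V5 symbols lie under the wild-type ones.

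The counts do not show where in a gene the reads fell. The promoters of the 5 tested genes with the smallest p among those in the RefSeq promoter table (build GRCm38.p6, the same assembly as mm10) are shown because a factor bound at the start of a gene would be found there. Each runs 5′ to 3′ on the gene's strand from 250 bases before the annotated start to 50 after it. They are chr9:106477059-106477358 (Rrp9, plus strand), chr13:12395125-12395424 (Heatr1, plus), chr17:47611443-47611742 (Bysl, minus), chr2:129100746-129101045 (Polr1b, plus) and chr16:13780449-13780748 (Rrn3, plus). Capitals mark matches, on either strand, to any of 5 short motifs. The E-box was searched as CACGTG. For the SP1 box the letters were GGGCGG. Factors of the ETS family were given the letters CCGGAAG. The YY1 motif was searched as AAGATGG. For the TATA box the letters were TATAAA.
Rrp9: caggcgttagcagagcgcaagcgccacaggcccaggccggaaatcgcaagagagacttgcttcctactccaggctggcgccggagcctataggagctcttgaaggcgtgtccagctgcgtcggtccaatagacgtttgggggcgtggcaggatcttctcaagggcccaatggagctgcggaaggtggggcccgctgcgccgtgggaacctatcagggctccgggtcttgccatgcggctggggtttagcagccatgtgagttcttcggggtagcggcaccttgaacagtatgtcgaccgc
Heatr1: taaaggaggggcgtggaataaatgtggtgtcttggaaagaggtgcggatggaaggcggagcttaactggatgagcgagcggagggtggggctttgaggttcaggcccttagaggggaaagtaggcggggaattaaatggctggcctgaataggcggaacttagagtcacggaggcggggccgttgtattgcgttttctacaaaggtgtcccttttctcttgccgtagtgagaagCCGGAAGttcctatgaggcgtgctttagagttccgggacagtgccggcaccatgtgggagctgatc
Bysl: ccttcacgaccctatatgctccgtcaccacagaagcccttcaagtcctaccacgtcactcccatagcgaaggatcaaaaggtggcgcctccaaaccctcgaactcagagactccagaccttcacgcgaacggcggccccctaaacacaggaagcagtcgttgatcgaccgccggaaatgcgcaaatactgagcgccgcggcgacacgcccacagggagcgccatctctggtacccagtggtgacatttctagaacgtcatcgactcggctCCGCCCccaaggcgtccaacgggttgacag
Polr1b: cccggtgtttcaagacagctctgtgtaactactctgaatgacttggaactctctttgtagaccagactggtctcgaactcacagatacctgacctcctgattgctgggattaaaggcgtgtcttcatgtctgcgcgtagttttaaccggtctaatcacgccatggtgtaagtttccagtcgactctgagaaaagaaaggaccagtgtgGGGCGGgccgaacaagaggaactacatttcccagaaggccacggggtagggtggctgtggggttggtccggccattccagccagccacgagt
Rrn3: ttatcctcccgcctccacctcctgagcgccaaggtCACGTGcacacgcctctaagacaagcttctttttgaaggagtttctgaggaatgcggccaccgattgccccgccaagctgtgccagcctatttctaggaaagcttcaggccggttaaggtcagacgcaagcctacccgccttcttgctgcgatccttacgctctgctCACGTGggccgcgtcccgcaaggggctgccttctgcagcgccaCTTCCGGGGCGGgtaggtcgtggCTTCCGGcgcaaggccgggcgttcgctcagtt

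The promoter of Rrp9 held none of the 5 motifs. Heatr1 had 1 ETS match, Bysl 1 SP1 match on the opposite strand and Polr1b 1 SP1 match. Rrn3 had 2 E-box, 2 ETS and 1 SP1 match, and its SP1 match overlaps an ETS match. Over the 39 promoter windows of the 31 listed genes in the table, in which some genes have several windows, an E-box was found in 7 (17.9%), beside 7.15% of all 32851 windows of that length. The SP1 box was found in 64.1% beside 35.7%, the ETS motif in 28.2% beside 8.86%, the YY1 motif in 0 windows beside 6.34% and the TATA box in 7.69% beside 13.6%. Listed windows were also richer in bases that make up the first 3 motifs, with a median of 18 CpG dinucleotides beside 7 and a GC content of 57.3% beside 52.7%. A match is a run of letters and was not tested as a binding site.

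The summed values of the RNA polymerase I machinery overlapped between V5 and wild type. Its 8 genes together held 245, 248 and 251 CPM in V5 replicates 1, 2 and 3, against 243, 252 and 208 CPM in wild type, and 225 CPM in the input. The V5 libraries had an SD of 2.64 CPM, and wild-type replicate 2 was above all of them. Log2 fold changes were positive in 4 of its 7 tested genes.

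Polr1a encodes the largest subunit of the enzyme (chr6:71909053-71979435). It had 45.9, 51.8 and 57.5 CPM in V5, against 51.2, 59.5 and 49.9 CPM in wild type, and 38.1 CPM in the input. The ChIP groups overlapped in part, with V5 replicate 1 lowest and wild-type replicate 2 highest, and all 6 ChIP libraries were above the input. The log2 fold change was -0.02 (SE 0.35), with a range of -0.08 to 0.06 when each library was left out in turn; ranges given below are of this kind. Polr1b, the other subunit of the catalytic core (chr2:129100970-129128060), had 11.2, 6.15 and 19.2 CPM in V5, against 25.6, 20.3 and 21.2 CPM in wild type, and 21.5 CPM in the input. The wild-type values stood near the input and V5 below both, with V5 replicate 3, the deepest ChIP library, close to wild-type replicate 2. The log2 fold change of Polr1b came to -0.81 (SE 0.61, edgeR adjusted p = 0.980), to -0.50 without V5 replicate 2 and to -1.32 without V5 replicate 3 (edgeR adjusted p = 0.548).

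Polr1c and Polr1d encode a pair of small subunits shared between RNA polymerases I and III. Polr1c is a short gene (chr17:46243920-46248045) with 2, 0 and 8 counts in V5, against 16, 3 and 7 in wild type, with 19 in the input, too few for the test. Its highest value, 12.4 CPM, was in wild-type replicate 1. Polr1d (chr5:147076715-147111361) had 39.7, 46.6 and 25.9 CPM in V5, against 38.0, 24.1 and 20.4 CPM in wild type, and 32.7 CPM in the input. The groups overlapped, and the log2 fold change was 0.47 (SE 0.47), 0.28 without V5 replicate 2 or wild-type replicate 3, and 0.77 without wild-type replicate 1. Polr1e, a subunit of the enzyme's heterodimer that aids initiation, had 13.6, 40.4 and 17.95 CPM in V5, against 20.2, 25.6 and 16.8 CPM in wild type. V5 replicate 2 was highest and V5 replicate 1 lowest, so V5 spanned the wild-type range on both sides (log2 fold change 0.22, SE 0.56). Without V5 replicate 2 the value for Polr1e turned to -0.35.

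Among the initiation factors, Ubtf had 13.6, 13.2 and 14.6 CPM in V5, against 15.5, 9.79 and 17.2 CPM in wild type, and 20.4 CPM in the input. Its V5 values were the least dispersed of all listed genes with counts, at a chi-square per degree of freedom of 0.0697, and its log2 fold change was -0.01 (SE 0.64, range -0.22 to 0.14). Rrn3 had 54.5, 36.0 and 48.4 CPM in V5, against 18.6, 46.7 and 36.7 CPM in wild type, and 45.6 CPM in the input. Wild-type replicate 1 was the lowest, and the log2 fold change of 0.47 (SE 0.43) became 0.18 without that library and 0.75 without wild-type replicate 2. Taf1b had 64.5, 53.6 and 64.8 CPM in V5, against 61.3, 63.3 and 43.1 CPM in wild type, and 45.9 CPM in the input, with overlapping groups (log2 fold change 0.16, SE 0.34, range -0.01 to 0.25).

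Tcof1, the main Treacher Collins gene (GeneID 21453, chromosome 18), had 11.2, 43.9 and 21.0 CPM in V5, against 29.5, 24.9 and 30.3 CPM in wild type, and 30.96 CPM in the input. V5 replicates 1 and 2 lay on opposite sides of the narrow wild-type range. The log2 fold change of Tcof1 came to -0.14 (SE 0.52, edgeR adjusted p = 0.997), with a range of -0.74 to 0.14 when each library was left out in turn.

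**Figure D3:**
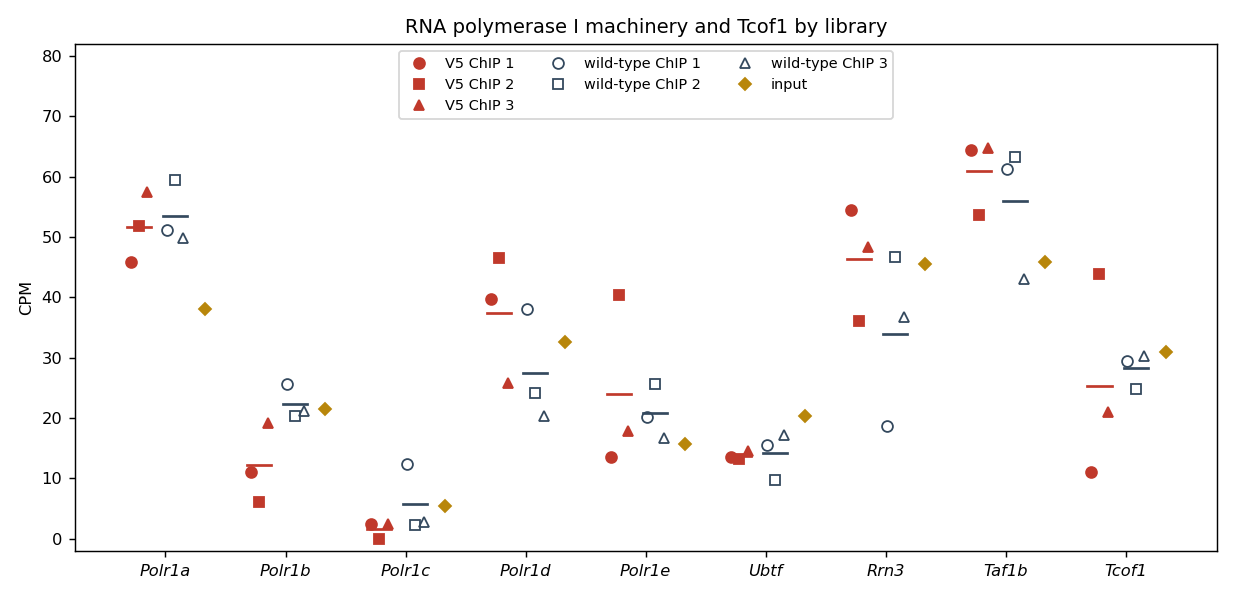
CPM by library (vertical axis) for the 8 genes of the RNA polymerase I machinery and Tcof1; red filled symbols are V5 replicates, dark open symbols wild-type replicates, short lines the group means and gold diamonds the input. Apart from Polr1b, with V5 at 6.15 to 19.2 CPM and wild type at 20.3 to 25.6 CPM, the symbols of the groups overlap in every gene.

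Ncl and Npm1 encode nucleolin and nucleophosmin, the abundant RNA-binding and chaperone proteins of the nucleolus. Ncl had 18.6, 39.5 and 17.95 CPM in V5, against 14.0, 35.4 and 14.0 CPM in wild type, and 19.8 CPM in the input. In both groups replicate 2 was about as far above the others, and the log2 fold change was 0.29 (SE 0.57), -0.17 when V5 replicate 2 was left out and 0.87 when wild-type replicate 2 was. Npm1 had 3.72, 5.27 and 16.7 CPM in V5, against 10.1, 20.3 and 8.38 CPM in wild type, and 17.8 CPM in the input, with overlapping groups. Its log2 fold change of -0.49 (SE 0.76) became -1.43 with V5 replicate 3 left out and -0.03 with wild-type replicate 2 left out. The Ncl gene contains 2 snoRNA genes, Snora75 and Snord82, which the table counts separately.

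The box C/D snoRNPs methylate ribosomal RNA, with fibrillarin (Fbl) as the enzyme and NOP56 and NOP58 as its scaffold. Apart from Rrp9 these genes did not separate the groups. Nop58 had 58.3, 36.9 and 20.1 CPM in V5, against 17.1, 19.6 and 52.3 CPM in wild type, and 41.6 CPM in the input. Both groups were widely spread, and the log2 fold change of 0.37 (SE 0.52) became 1.08 without wild-type replicate 3 and -0.14 without V5 replicate 1. Fbl and Nop56 had too few counts for the test. Fbl had 2, 2 and 27 counts in V5, against 4, 16 and 16 in wild type, with 19 in the input, and Nop56 had 1, 1 and 9 counts in V5, against 10, 1 and 7 in wild type, with 18 in the input.

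The box H/ACA snoRNPs convert uridine to pseudouridine, with dyskerin (Dkc1) as the enzyme. Dkc1 lies on chromosome X and had 0, 15.8 and 14.6 CPM in V5, against 10.9, 9.79 and 10.4 CPM in wild type, and 18.1 CPM in the input. The count of 0 in V5 replicate 1 allows up to 3.72 CPM from counting error, which is still below every wild-type library, while V5 replicates 2 and 3 lay above all of them. The log2 fold change of Dkc1 was 0.03 (SE 0.83), 0.52 without V5 replicate 1 and -0.33 without V5 replicate 2. Nhp2 had 2, 0 and 24 counts in V5, against 0, 2 and 2 in wild type, with 12 in the input, and Gar1 had 6, 0 and 15 counts in V5, against 1, 2 and 16 in wild type, with 22 in the input. Neither had enough counts for the test. In Nhp2 the V5 reads came mostly from the deepest library.

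The 11 small subunit factors together held 222, 360 and 296 CPM in V5 replicates 1, 2 and 3, against 236, 237 and 261 CPM in wild type, and 262 CPM in the input. V5 replicate 1 lay below and V5 replicates 2 and 3 above every wild-type library. Log2 fold changes were positive in 6 of the 10 tested, among them Heatr1 above. Rrp12, whose yeast counterpart acts in export of pre-ribosomes, had 21.1, 65.0 and 33.8 CPM in V5, against 17.8, 24.9 and 26.4 CPM in wild type, and 32.4 CPM in the input. V5 replicate 2 again held the highest value, and the log2 fold change of 0.81 (SE 0.49) became 0.30 without it.

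Several early subunits of the processome also act in transcription of the precursor, and none of these separated the groups other than Heatr1. Wdr75 had 9.92, 27.2 and 31.6 CPM in V5, against 38.8, 24.9 and 27.9 CPM in wild type (log2 fold change -0.37, SE 0.51, range -0.65 to -0.07). Wdr43 had 48.3, 17.6 and 46.9 CPM in V5, against 41.1, 31.6 and 57.5 CPM in wild type (-0.18, SE 0.44, range -0.43 to 0.16). V5 replicate 1 was low in Wdr75 and V5 replicate 2 in Wdr43, and without V5 replicate 2 Wdr43 turned positive. Utp4 had 13.6, 31.6 and 45.9 CPM in V5, against 31.8, 35.4 and 27.9 CPM in wild type (-0.02, SE 0.48, range -0.42 to 0.28), and Nol11 had 26.0, 15.8 and 26.2 CPM in V5, against 15.5, 21.1 and 18.8 CPM in wild type (0.33, SE 0.55, range 0.18 to 0.53). Utp4 and Nol11 encode proteins that bind each other, and in both the groups overlapped.

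Of the other small subunit genes, Nop14 had 18.6, 14.9 and 19.5 CPM in V5, against 6.98, 14.3 and 22.0 CPM in wild type (log2 fold change 0.30, SE 0.63, range -0.02 to 0.74). Ltv1, a factor of cytoplasmic maturation, had 6.20, 36.9 and 8.22 CPM in V5, against 6.21, 15.1 and 14.8 CPM in wild type (0.50, SE 0.73). Nob1, the nuclease that makes the 3′ end of 18S rRNA, had 4.96, 29.0 and 11.3 CPM in V5, against 15.5, 11.3 and 10.8 CPM in wild type (0.28, SE 0.71). In both Ltv1 and Nob1 V5 replicate 2 was above all wild-type libraries, and in Nob1 V5 replicate 1 was below them. Without V5 replicate 2 the log2 fold change turned to -0.69 in Ltv1 and to -0.53 in Nob1. Nol6, a U3-associated protein, was not tested, with 18, 5 and 22 counts in V5, against 5, 1 and 28 in wild type, with 12 in the input.

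The 7 large subunit factors held 125, 78.2 and 109 CPM in V5, against 93.9, 89.6 and 93.0 CPM in wild type, and 112 CPM in the input, with V5 on both sides of wild type. BOP1, PES1 and WDR12 form the PeBoW complex, which is needed for the 28S and 5.8S rRNAs. Bop1 had 22.3, 19.3 and 24.6 CPM in V5, against 16.3, 20.3 and 14.0 CPM in wild type, and 24.1 CPM in the input (log2 fold change 0.42, SE 0.56). Wdr12 had 42.1, 33.4 and 27.7 CPM in V5, against 24.1, 23.4 and 37.9 CPM in wild type, and 33.5 CPM in the input (0.29, SE 0.46, range 0.06 to 0.55). Their groups overlapped, and Bop1 shares 8.70% of its span with Scx and Mroh1. Pes1 had 0, 2 and 12 counts in V5, against 6, 4 and 17 in wild type, with 6 in the input, a level of 0.107 CPM per kb in the input where the median of all genes was 0.750.

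Nop2 encodes a methyltransferase of 28S rRNA and had 47.1, 4.39 and 11.6 CPM in V5, against 22.5, 11.3 and 5.59 CPM in wild type, and 17.2 CPM in the input. V5 replicates 1 and 2 held the highest and lowest values of all 6 ChIP libraries, and the log2 fold change of 0.72 (SE 0.78) turned to -0.67 without V5 replicate 1. Rrp1 had 4.96, 9.66 and 11.9 CPM in V5, against 10.1, 15.8 and 11.2 CPM in wild type (log2 fold change -0.43, SE 0.72, range -0.68 to -0.21). Its paralog Rrp1b had 8.68, 9.66 and 29.8 CPM in V5, against 16.3, 15.8 and 17.6 CPM in wild type (0.02, SE 0.62), and its log2 fold change was -0.79 without V5 replicate 3. Nop16 was listed at 0 counts in all 7 libraries, as were its neighbours Higd2a and Arl10, while Cltb, 2289 bp away, had 61 counts in the input. Whether reads there could be assigned to Nop16 at all was not tested, so its 0 is given as listed and not as a level.

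In CPM of library totals, V5 lay above wild type without overlap in the sum over all 37 genes, but not without Rrp9. The sums were 790, 845 and 786 CPM in V5 replicates 1, 2 and 3, against 676, 717 and 707 CPM in wild type, and 763 CPM in the input. The ratio of the group means, V5 over wild type, was 1.15. Without Rrp9, a choice made after its values were seen, the summed values were 704, 830 and 775 CPM in V5, against 673, 716 and 705 CPM in wild type, and 754 CPM in the input. The groups then overlapped, with V5 replicate 1 below wild-type replicates 2 and 3, and the ratio was 1.10. The input lay inside the V5 range and above all wild-type libraries in the sum without Rrp9. With the TMM scaling of the edgeR test, the sums of all 37 genes were 856, 834 and 754 CPM in V5. Those of wild type were 675, 713 and 694 CPM, and the ratio was 1.17. TMM raises the values of V5 replicate 1 (factor 0.923). The sum without Rrp9 was taken on library totals only, so its overlap is stated for that scaling.

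**Figure D4:**
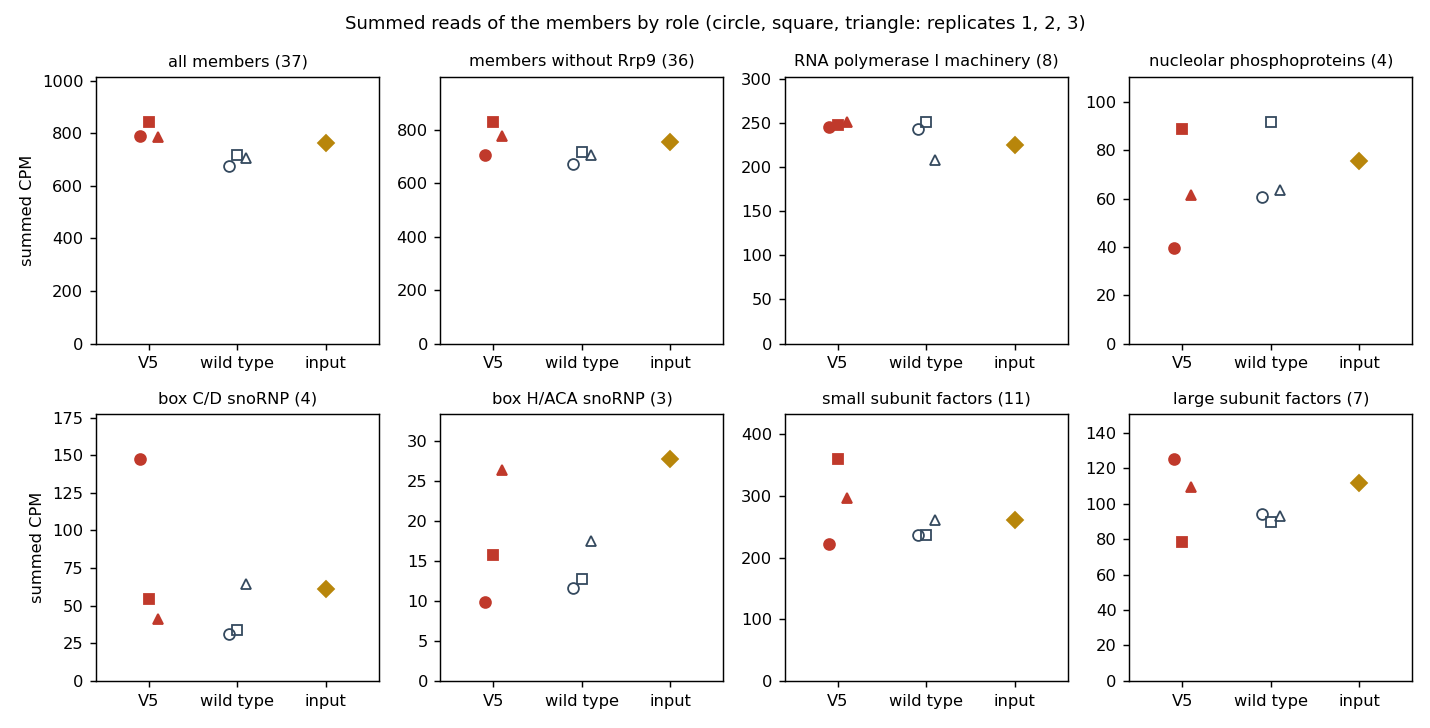
Summed CPM (vertical axes, each from 0) of all 37 listed genes, of the list without Rrp9 and of each role group, by library; red filled symbols are V5, dark open symbols wild type and gold diamonds the input. On the library totals used here, the V5 symbols stand clear of wild type for all genes together and in no other panel. For all genes together V5 lies at 786 to 845 CPM and wild type at 676 to 717 CPM. Other scaling is not shown.

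Set against the single input, a comparison with no replicate of the input and hence no test, the listed genes were near its level in both ChIP groups. Ratios were taken for the 31 genes with at least 70 counts over the 7 libraries. The median log2 ratio of V5 to input was -0.10, beside 0.04 over all 16736 such genes, and that of wild type to input was -0.04, beside 0.00. V5 was more than 2-fold above the input in 4 listed genes, where 9.24% of all genes were, and more than 2-fold below in 0, where 8.86% of all genes were. These 4 were Rrp9 at 2.05, Nol6 at 1.69, Ltv1 at 1.10 and Heatr1 at 1.07 on the log2 scale. In Ltv1 the ratio came from V5 replicate 2, at 36.9 CPM. V5 replicates 1 and 3 of Ltv1 had 6.20 and 8.22 CPM, beside 8.03 CPM in the input. Nol6 had 22.3, 4.39 and 6.69 CPM in V5 replicates 1, 2 and 3, and 3.44 CPM in the input. Rrp9 likewise had its highest value in 1 library, V5 replicate 1. Wild type was more than 2-fold above the input in 0 listed genes, where 6.56% of all genes were, and more than 2-fold below in 1, Rrp9 at -1.69, where 7.25% of all genes were. For Nol6, Ltv1 and Heatr1 the wild-type ratios were 0.64, 0.59 and 0.07. Both sets of ratios share the input library.

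**Figure D5:**
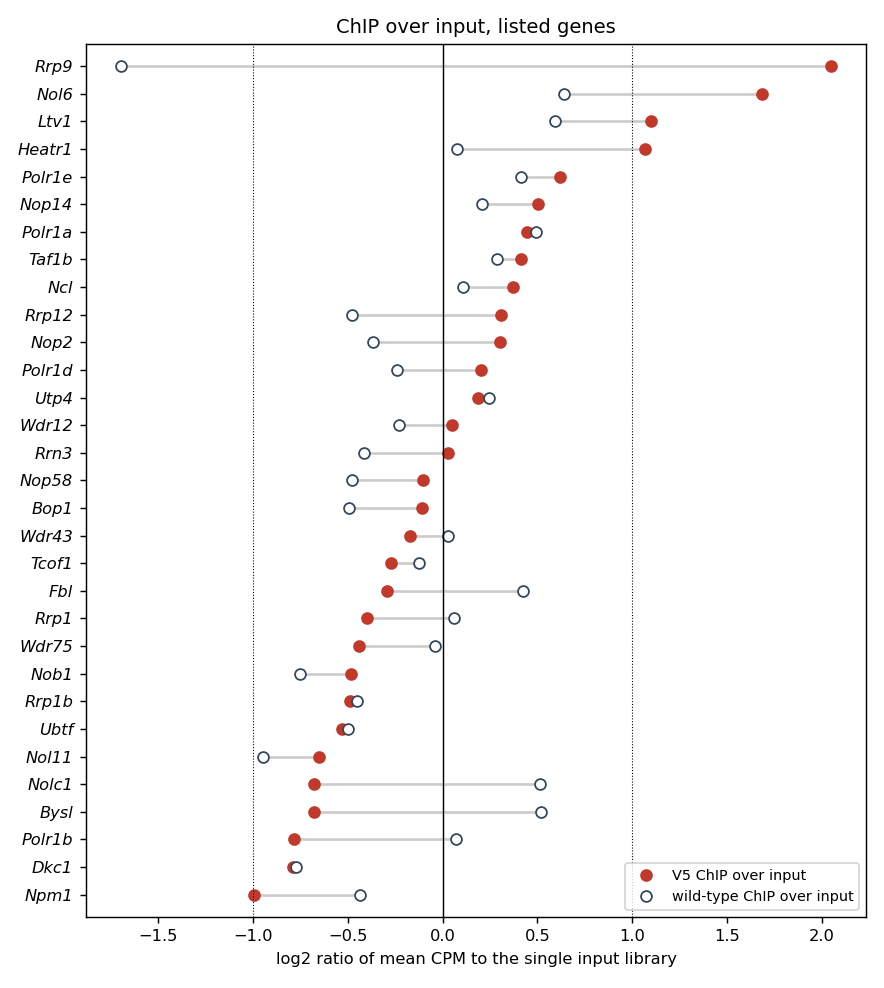
Log2 ratio of mean CPM to the input (horizontal axis) for V5 ChIP (red) and wild-type ChIP (open) in the 31 listed genes with enough counts; dotted lines mark 2-fold. Rrp9 is the gene with the widest gap, at 2.05 for V5 and -1.69 for wild type, and 4 red points lie beyond 2-fold.

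Per length, the listed genes had a median of 0.878 CPM per kb in V5, 0.829 in wild type and 0.973 in the input, beside medians over all genes of 0.792 in V5, 0.819 in wild type and 0.750 in the input. Relative to all genes they thus stood highest in the input. Rrp9 was at 4.56 CPM per kb in V5, 0.304 in wild type and 1.10 in the input. The lowest levels per kb in V5 among listed genes with reads were those of Pes1, at 0.112, and Nop56, at 0.330. In 9 of the 28 tested genes the input was above every wild-type library (32.1%, beside 27.7% of all tested genes), and in 7 it was above every V5 library, beside 23.5% of all tested genes.

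Other genes of the same pathway, from lists drawn up for this comparison, were not called either. Log2 fold changes were positive in 3 of 5 tested genes among other RNA polymerase I genes (median 0.43) and, among RNA polymerase III genes, in 8 of 15 (median 0.01). Other small subunit factors had 21 of 38 positive (median 0.10), other large subunit factors 19 of 33 (median 0.16) and other snoRNP genes 3 of 9 (median -0.39). Only 4 of 79 cytosolic ribosomal protein genes had enough counts, all of them positive with a median of 0.65, and these passed a filter that favours genes with high values. In all of these lists the edgeR test called 0 genes higher and 0 lower. The summed values of the 12 other RNA polymerase I genes also lay wholly above wild type in V5. They were 190, 134 and 136 CPM in V5, against 95.4, 111 and 117 CPM in wild type, and 126 CPM in the input. The ratio of group means was 1.42. Polr2f alone held 73.1, 9.66 and 15.5 CPM in V5, against 4.66, 21.8 and 11.2 CPM in wild type. Its V5 replicates 2 and 3 thus lay inside the wild-type range. How much of the separation came from Polr2f was not tested. Sums of each other pathway list overlapped between the groups.

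Some of the genes with the smallest p in these lists are given here. Rcl1, a small subunit factor, had 44.6, 110 and 40.2 CPM in V5, against 34.1, 15.8 and 33.1 CPM in wild type, and 28.7 CPM in the input (log2 fold change 1.23, SE 0.45). The helicase gene Ddx21 had 21.1, 55.3 and 28.6 CPM in V5, against 17.1, 15.1 and 12.8 CPM in wild type, and 24.7 CPM in the input (1.25, SE 0.53). In both, V5 lay wholly above wild type with V5 replicate 2 highest, as in Heatr1. In the other direction Gtf3c6, a subunit of a polymerase III initiation factor, had 3.72, 0 and 4.26 CPM in V5, against 13.2, 13.6 and 10.8 CPM in wild type, and 15.5 CPM in the input (-2.11, SE 0.93). Tgs1, which modifies the cap of small nuclear RNAs, had 11.2, 7.03 and 55.1 CPM in V5, against 48.9, 61.0 and 54.3 CPM in wild type, and 28.4 CPM in the input (-1.06, SE 0.53). There the deepest V5 library stood with wild type and the other V5 libraries far below it.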

How the data were processed

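Anti-V5 ChIP-seq libraries of pharyngeal arches (3 V5, 3 wild type) and 1 input were analysed; groups follow the titles in the labels. What the authors deposited is a table of counts of reads per gene, not normalized, with a gene length, per the file headers and values; the files of single samples repeat the columns of the joint table. The submitters' processing notes name bcl2fastq, featureCounts, MACS and mm10; the aligner and the treatment of duplicates, strand and overlaps are not stated there, so overlapping genes are uncertain. No value column lacked a sample (0), no row lacked a gene, and 25275 of 27179 gene identifiers matched the RefSeq table (GRCm38.p6). The deposited length was within 1% of the RefSeq span in 28 of the 37 listed genes. Signal at a promoter is diluted by the rest of the gene, and reads outside genes were not analysed here.

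V5 and wild type were compared over the whole table in R 4.3.3 by the two-sided quasi-likelihood test of edgeR 4.0.16, after filterByExpr (minimum count 10) and TMM scaling, with robust glmQLFit and with p-values adjusted by Benjamini-Hochberg over 14575 genes, and with standard errors derived from the F statistic. DESeq2 1.42.0, edgeR's likelihood ratio test and limma-voom (limma 3.58.1) were alternatives, beside other scaling, no filter and each library left out. The scripts were tested on simulated data. CPM are counts per 1e6 library counts. Ratios to the input used mean CPM with a prior count of 0.5. Between pairs of libraries a chi-square over genes came to 4.03 to 10.2 per degree of freedom, so no library was a copy of another. Pairs of V5 libraries had 9.45 to 10.2 and pairs of wild-type libraries 4.93 to 5.46. V5 replicate 3 paired with wild-type libraries had 4.03 to 5.45. By this measure V5 replicate 3 stood nearer to wild type than to the other V5 libraries. Floors (3 counts) cover counting error only.

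The listed genes and all lists were chosen with earlier results of these data known. Genes described in full follow a fixed rule (the RNA polymerase I machinery, Tcof1, genes without overlap between groups, the 10 tested genes with the smallest p and those not tested); the remaining listed genes are given in brief. Of the other pathway lists up to 3 genes each were eligible by p.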

Additional observations from a re-analysis of the deposited data

How the results depend on the processing

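The count of listed genes called was 0 with the main test, DESeq2, the likelihood ratio test, limma-voom, RLE factors, library totals and the replicate block. It was 1 without the filter on low counts, and 0 to 1 when each library was left out in turn; the gene was Rrp9 in both (adjusted p = 0.00183 without the filter and 0.0256 without V5 replicate 2, edgeR). Over the alternatives the adjusted p of Rrp9 ranged from 0.00183 to 1.00. Over all genes the count called was 0 with the main test, 9 without the filter, 1 with limma-voom, 1 with the replicate block, and 0 to 2 with a library left out. The cause of these changes was not tested. Deviations of same-numbered libraries were hardly correlated, at 0.0121, -0.00208 and 0.0456, beside -0.0428 to 0.0230 for libraries of different number. Such values cannot tell whether same-numbered libraries were processed together. With the replicate block 17 listed genes were positive, in place of 18, and the median log2 fold change of the tested listed genes was 0.15.

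The median log2 fold change was 0.066 with limma-voom, in place of 0.25, and 0.0229 to 0.2485 with a library left out, then over 29 to 31 listed genes. The summed ratio of 1.15 was 1.10 without Rrp9, which was chosen after seeing the data and taken on library totals only. It was 1.17 with TMM effective library sizes and 1.12 to 1.17 with a library left out. The median log2 ratio of wild type to input, -0.04, was -0.17 to -0.12 with a wild-type library left out. Of 195 values of the 15 named and tested genes under 13 alternatives, 3 moved by 1 SD or more, and 2, both of Rrp9, crossed the threshold. This SD was derived from the standard error of the main fit, which is wide, so few moves could exceed it. In 6 of these 15 genes the sign of the fold change turned under at least 1 alternative. The sign of the fold change was the same under all 13 in 12 of the 28 tested genes, 8 positive and 4 negative. Counts were too low to test 9 listed genes.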
